A study of Mus musculus with 6 samples.

Results

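This account follows the transcriptional repressor gene Rest and 9 genes of neuronal splicing and RNA-binding proteins (Srrm3, Srrm4, Nova1, Nova2, Rbfox1, Rbfox2, Elavl2, Elavl4 and Celf4) in mouse pancreatic islets. They were taken by their symbol in the GENCODE vM21 annotation, and all 10 were among the 16430 genes with enough reads to be tested, of 54119 genes annotated in the files. Polyadenylated RNA came from islets picked by hand from male C57BL/6 mice at postnatal day 24, with 1 mouse per library. There were 3 control mice and 3 Dpy30 knockout mice. Dpy30 is a core part of the enzyme complexes that place methyl groups on lysine 4 of histone H3 (H3K4), and the study concerns the need for this mark in postnatal maturation of endocrine cells. No Cre line or deleted part of Dpy30 is named in the labels, which therefore do not say which cells lost the gene, and H3K4 methylation itself was not analysed here.

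REST is a zinc-finger protein that binds a DNA element called RE1 and recruits corepressors, keeping neuronal genes silent in most tissues. Islet endocrine cells resemble neurons in having little REST and in using many neuronal secretory and splicing genes. SRRM3 and SRRM4 promote the inclusion of microexons, very short exons that are used mostly in neurons and, through SRRM3, in islet endocrine cells. NOVA, RBFOX and CELF proteins bind short motifs in pre-mRNA and shift which exons are included, and ELAVL2 and ELAVL4 (HuB and HuD) bind AU-rich and U-rich sequences in pre-mRNA and mRNA.

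Estimated reads ran from 24575889 to 25354384 per control library and from 17131515 to 23976598 per knockout library. Transcripts of Dpy30 that skip its exon 4 held 0.438 to 5.24% of Dpy30 reads in control and 80.5 to 82.2% in knockout. The labels do not name this exon. It was taken as the one that the knockout libraries lack, so its choice is not independent of these values. Knockout replicate 2 stood apart. The gene Gm42418, which overlaps ribosomal RNA sequence, took 15.8% of its scaled reads against 0.101 to 0.214% in the other 5 libraries, and its gene levels fell with transcript length (Spearman correlation across genes -0.384, against 0.0448 to 0.159 in the others). The labels do not describe how the mice of 1 replicate number are related.

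Of the 10 genes, 2 changed, both lower in knockout islets: Srrm4 and Elavl4. Each was counted as changed at an adjusted p under 0.05 in edgeR's quasi-likelihood test, which called 9.95% of all tested genes, 5.84% of them lower and 4.1% higher. The same 2 genes were the only members whose control and knockout libraries did not overlap, where 34.8% of all tested genes had groups that did not overlap. Rest, Srrm3 and the other 6 did not pass the test. The median log2 fold change over the 10 was -0.17, beside 0.01 over all tested genes.

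**Figure D1:**
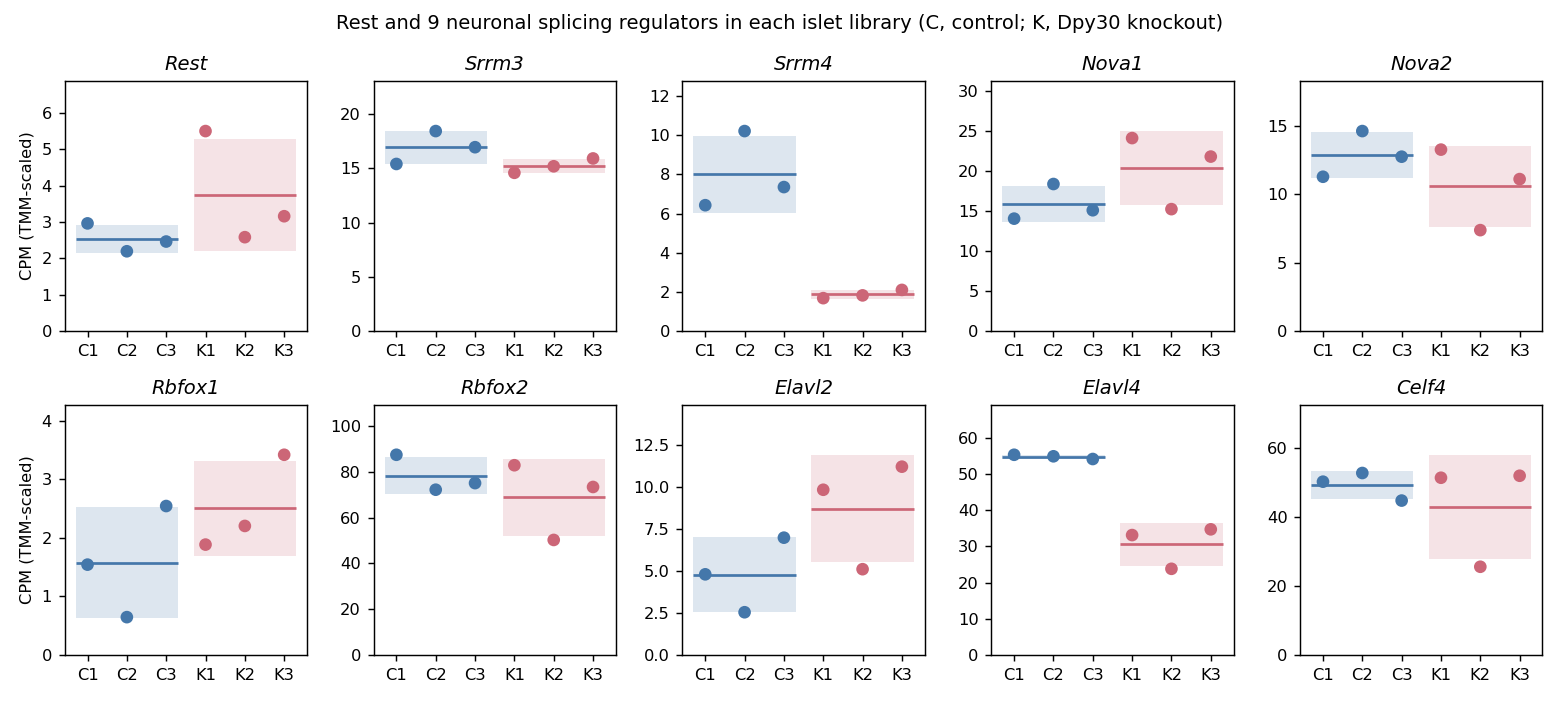
Level of each gene in each library, in CPM (read counts scaled to library size, here with TMM), with control libraries as C1 to C3 and Dpy30 knockout libraries as K1 to K3; lines mark group means and shading 1 SD on each side (n = 3). Srrm4 (6.43 to 10.2 against 1.69 to 2.11 CPM) and Elavl4 (54.2 to 55.4 against 23.8 to 34.7 CPM) separate the groups, and the other panels overlap.

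Per length of transcript (TPM, levels scaled by transcript length and library total), the most abundant of the 10 in control islets was Elavl4 at 18.6 ± 0.86 TPM (SD, n = 3), followed by Rbfox2 at 14.1 ± 3.16 and Celf4 at 14 ± 1.10. Rbfox2 and Celf4 did not differ from each other beyond their spread. Srrm3 stood at 9.10 ± 0.76 TPM and Nova1 at 4.07 ± 0.18. Srrm4 (1.5 ± 0.18), Nova2 (1.37 ± 0.09) and Elavl2 (1.29 ± 0.74) lay within each other's spread. Rbfox1 (0.540 ± 0.383) and Rest (0.332 ± 0.077) were the lowest. In knockout islets Srrm4 held the lowest mean, 0.318 ± 0.037 TPM, with Rest at 0.635 ± 0.364. TPM sum to the same total in each library, so the reads Gm42418 took in knockout replicate 2 lower every other TPM value there.

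Rest lies on chr5:77265491-77286432 of GRCm38, on the plus strand. Its level was 2.96, 2.20 and 2.46 CPM in control replicates 1 to 3 and 5.50, 2.58 and 3.16 CPM in knockout replicates 1 to 3. Only knockout replicate 1 stood clearly above the rest, and the groups overlapped. The log2 fold change was 0.57 (SE 0.34, 95% interval -0.23 to 1.36, edgeR's quasi-likelihood test with Benjamini-Hochberg adjustment, adjusted p = 0.328). These levels rest on 41 to 137 reads per library. Without knockout replicate 1 the log2 fold change of Rest was 0.18 (edgeR, adjusted p = 0.756), and without knockout replicate 2 it was 0.77 (adjusted p = 0.207). The genes whose log2 CPM, centred over the 6 libraries, ran closest to that of Rest were Kdm7a, Rnf19a and Stk3. Their root mean square distances were 0.0945, 0.103 and 0.105, where the median over 11031 genes was 0.487. As the smallest of all these distances they lie below the median by choice, and a link to Rest was not tested. Kdm7a encodes a histone demethylase. Its level was 62.8 to 82.1 CPM in control, and 131.2, 76.9 and 91.0 CPM in knockout replicates 1 to 3, again highest in knockout replicate 1.

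Srrm4 and Srrm3 encode related proteins of the same splicing activity, and their genes behaved unlike each other. Srrm4 (chr5:116439275-116591817, minus strand) stood at 6.43, 10.2 and 7.35 CPM in control replicates 1 to 3 and at 1.69, 1.83 and 2.11 CPM in knockout replicates 1 to 3. Every knockout library lay below every control library. Its log2 fold change was -2.09 (SE 0.27, 95% interval -2.72 to -1.46, edgeR, adjusted p = 0.0044), and without knockout replicate 2 it was -2.07 (adjusted p = 0.0199). It was called under all 13 alternative settings, with log2 fold changes from -2.55 to -1.88. In the authors' deposited table, from a fit of their own with settings not given, Srrm4 has -2.49 as its log2 fold change (adjusted p = 1.12e-13). DESeq2 run here gave -2.09 (adjusted p = 1.27e-09). The counts were small: 154, 237 and 179 reads in control and 42, 29 and 56 in knockout.

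Srrm3 (chr5:135806890-135874772, plus strand) was at 15.4, 18.4 and 17 CPM in control and at 14.6, 15.2 and 15.9 CPM in knockout replicates 1 to 3. Those groups overlapped. The log2 fold change was -0.15 (SE 0.15, 95% interval -0.50 to 0.20, edgeR, adjusted p = 0.563), so that the interval excludes a change of 1 log2 unit in either direction. The share of Srrm4 in the summed TPM of Srrm3 and Srrm4 was 13.8, 15.3 and 13.4% in control and 2.32, 3.45 and 2.69% in knockout. The means were 14.2% ± 1.02 and 2.82% ± 0.58 (SD, n = 3 each; exact two-sided permutation test p = 0.1, the smallest that 3 against 3 can give). These sums take in every annotated transcript of each gene, also retained-intron ones. The longest coding transcripts by themselves had overlapping groups. Srrm4-201 was at 0.113, 0.327 and 0.242 TPM in control and 0.294, 0.143 and 0.361 TPM in knockout. Srrm3-204 was at 3.18, 3.19 and 3.52 TPM in control and 3.95, 2.43 and 4.27 TPM in knockout. So the lower share holds for all annotated transcripts together. Genes closest to Srrm3 over the 6 libraries were Mtfr1, Smchd1 and Caap1. Their distances were 0.0234, 0.0305 and 0.0345 against a median of 0.274 over 11030 genes, again below it by choice.

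The reads that Srrm4 lost were those assigned to transcripts that begin inside the gene. Srrm4-201 is the full-length coding transcript, with 13 exons and 7472 bases. Srrm4-203, annotated as a retained intron, has 5 exons and opens with 200 bases of the intron before the ninth exon of Srrm4-201. Srrm4-202 has 2 exons and 2798 bases, all near the 3′ end. Outside the exons of Srrm4-201 lie only 201 bases of Srrm4-203 and 220 bases of Srrm4-202. How Salmon, the transcript quantifier the authors used, divides reads among the 3 is therefore an estimate that rests mostly on where reads fall. The intron bases particular to Srrm4-203 are printed here from GENCODE vM21 (GRCm38, chr5:116453714-116453913, minus strand), because they are the part by which that transcript can be told from Srrm4-201:
Srrm4-203 start: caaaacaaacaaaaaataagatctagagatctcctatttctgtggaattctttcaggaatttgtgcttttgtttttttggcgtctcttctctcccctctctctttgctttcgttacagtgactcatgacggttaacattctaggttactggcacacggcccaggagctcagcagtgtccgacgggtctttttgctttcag

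Srrm4-203 was assigned 86.4, 106 and 78.6 reads in control replicates 1 to 3 and 0 in each of the 3 knockout libraries. Set against a floor of 3 reads over the knockout group, its assigned reads were at least 84.7-fold lower in knockout (control 3.82 ± 0.68 CPM, n = 3). That floor takes no account of the uncertainty in how Salmon divides reads, so it is no bound on the transcript itself. In the edgeR fit over all 42104 transcripts Srrm4-203 was called lower (adjusted p = 0.0374), where 0.416% of transcripts were called, 0.302% as lower. Srrm4-202 had 46.3, 61.1 and 54.1 reads in control and 0, 8.13 and 0 in knockout, with groups that did not overlap (log2 fold change -3.92, SE 1.44, adjusted p = 0.343). Full-length Srrm4-201 had 21.3, 70.3 and 46.3 reads in control and 42.0, 20.9 and 56.0 in knockout. Its groups overlapped and its log2 fold change was -0.16 (SE 0.53, edgeR, adjusted p = 0.957). Transcripts that begin inside the gene held 86.2, 70.4 and 74.2% of Srrm4 reads in control and 0, 28.0 and 0% in knockout. The lower gene total of Srrm4 was thus not seen in the reads assigned to its full-length transcript. Those reads were too few for a narrow estimate. Whether the full-length transcript itself fell cannot be told from Salmon's division of reads. Srrm4-203 was no longer called with the replicate number as a block (adjusted p = 0.296) or when any 1 library was left out (0.0924 to 0.177), settings under which the transcript fit called 0 transcripts in all.

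The promoter windows of the pair, 250 bases before to 50 after the annotated start, differ in base composition, and are shown because CpG-rich promoters are where H3K4 trimethylation is usually found. They come from RefSeq on GRCm38.p6, with CpG in capitals. The Srrm4 window (chr5:116591768-116592067, minus strand) holds 25 CpG and 64.3% G and C. It covers the start of the full-length Srrm4 transcript, whose assigned reads overlapped between the groups. It does not cover the starts inside the gene. The Srrm3 window (chr5:135817856-135818155, plus strand) holds 5 CpG and 45% G and C. A further annotated Srrm3 start, upstream of this window, was not examined. Whether base composition is related to the level of either gene in knockout was not tested. The median over 32851 windows is 7 CpG, and 81.6% of windows have fewer CpG than that of Srrm4 and 38.0% fewer than that of Srrm3:
Srrm4 promoter: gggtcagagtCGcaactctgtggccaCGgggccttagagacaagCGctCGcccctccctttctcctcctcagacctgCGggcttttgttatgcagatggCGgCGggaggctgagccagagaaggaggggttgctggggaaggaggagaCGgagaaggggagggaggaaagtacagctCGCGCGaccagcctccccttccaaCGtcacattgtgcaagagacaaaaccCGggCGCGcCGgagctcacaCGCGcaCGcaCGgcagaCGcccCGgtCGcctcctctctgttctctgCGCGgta
Srrm3 promoter: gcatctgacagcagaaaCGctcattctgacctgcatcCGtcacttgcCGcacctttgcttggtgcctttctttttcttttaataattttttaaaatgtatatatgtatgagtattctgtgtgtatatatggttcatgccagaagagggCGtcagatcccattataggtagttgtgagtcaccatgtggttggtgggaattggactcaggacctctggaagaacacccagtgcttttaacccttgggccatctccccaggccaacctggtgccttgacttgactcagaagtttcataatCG

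In all, 16 windows matched 7 of the 10 genes. The windows were searched on both strands for the letters of the left and right parts of the RE1 element, TTCAGCACC and GGACAGCGC, which do not overlap each other. They occurred in 0.371% and 0.405% of all windows and in 0 of the 16, which says only that these exact letters are not in those windows.

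**Figure D2:**
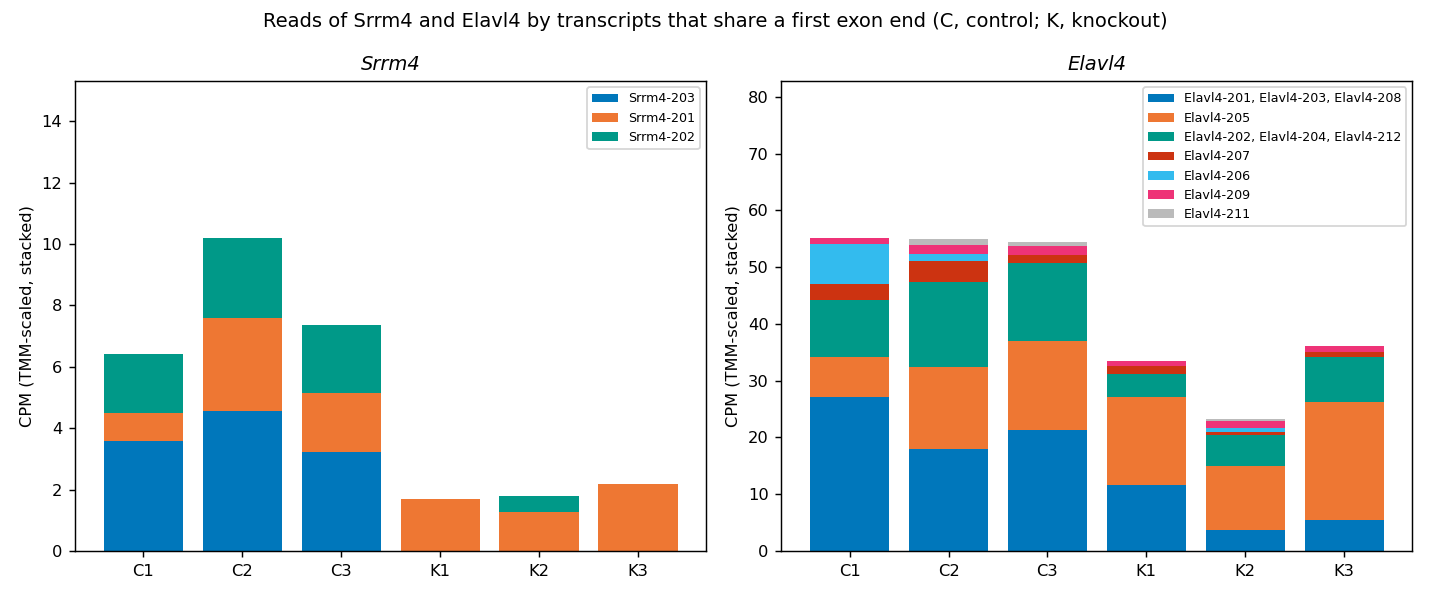
Stacked levels (CPM on TMM-scaled library sizes) of the transcripts of Srrm4, left, and Elavl4, right, grouped by a shared end of their first exon, in control (C1 to C3) and knockout (K1 to K3) libraries. Srrm4-203 is assigned 0 reads in all 3 knockout libraries while Srrm4-201 is assigned reads in each, and Elavl4-205 holds 46.4 to 57.9% of Elavl4 reads in knockout against 12.7 to 28.9% in control.

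Elavl4 (chr4:110203722-110351909, minus strand) encodes HuD, an RNA-binding protein of neurons and islet cells that acts on mRNA stability and translation. It stood at 55.4, 54.9 and 54.2 CPM in control replicates 1 to 3 and at 33.2, 23.8 and 34.7 CPM in knockout replicates 1 to 3. The control libraries were nearly equal, and all 3 knockout libraries lay below them. The log2 fold change was -0.84 (SE 0.16, 95% interval -1.21 to -0.47, edgeR, adjusted p = 0.0175), and without knockout replicate 2, the lowest library, it was -0.69 (adjusted p = 0.0185). In the authors' deposited table, from a fit of their own with settings not given, Elavl4 has -0.65 as its log2 fold change (adjusted p = 0.000743). DESeq2 run here gave -0.84 (adjusted p = 0.000278). The call of Elavl4 was lost without control replicate 1, 2 or 3 (adjusted p = 0.0503, 0.0596 and 0.0564), at nearly the same log2 fold changes of -0.84, -0.84 and -0.85.

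Elavl4 begins at several alternative first exons, and the 3 shown here each give the protein another start. The coding bases of 3 of them are shown in capitals with the next 30 bases of the shared second coding exon in lower case, from GENCODE vM21 transcripts (GRCm38, minus strand), because the shares of reads among them are described next. The coding bases lie at chr4:110286470-110286493 for Elavl4-201, chr4:110287233-110287241 for Elavl4-202 and chr4:110290161-110290220 for Elavl4-205:
Elavl4-201 coding start: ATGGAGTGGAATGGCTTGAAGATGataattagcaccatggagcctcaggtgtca
Elavl4-202 coding start: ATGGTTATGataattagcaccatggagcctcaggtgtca
Elavl4-205 coding start: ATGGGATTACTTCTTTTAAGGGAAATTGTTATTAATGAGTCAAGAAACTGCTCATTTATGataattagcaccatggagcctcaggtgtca

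Transcripts were grouped by the end of their first exon, a grouping chosen after the transcript values were seen. The group of Elavl4-201, Elavl4-203 and Elavl4-208 was at 27.2, 18 and 21.3 CPM in control and 11.6, 3.74 and 5.37 CPM in knockout. Its groups did not overlap (log2 fold change -1.68, SE 0.43, edgeR over 29747 first-exon groups, adjusted p = 0.112), and 1.99% of all first-exon groups were called. The group of Elavl4-202, Elavl4-204 and Elavl4-212 went from 9.96, 15.0 and 13.6 CPM to 4.15, 5.37 and 7.94 CPM (log2 fold change -1.14, SE 0.30, adjusted p = 0.124), again with no overlap. Elavl4-205 was at 7.03, 14.4 and 15.7 CPM in control and at 15.5, 11.2 and 20.8 CPM in knockout, with overlapping groups (log2 fold change 0.36, SE 0.36, adjusted p = 0.7). None of these Elavl4 groups passed the test by itself. Elavl4-206, with another first exon, was assigned 7.06, 1.23 and 0 CPM in control and 0, 0.712 and 0 CPM in knockout. Elavl4-201 and Elavl4-202 share 89.8 and 91.6% of their bases with Elavl4-205. The division of Elavl4 reads is thus also Salmon's estimate.

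As a share of Elavl4 reads, Elavl4-205 held 12.7, 26.2 and 28.9% in control and 46.4, 48.6 and 57.9% in knockout. The shares did not overlap (22.6% ± 8.67 against 50.9% ± 6.11, SD, n = 3 each; exact two-sided permutation test p = 0.1, the smallest possible). Over the members with at least 50 reads in every library, 3 of 20 first-exon groups had shares that did not overlap, close to the 11% of all first-exon groups. The other pair belonged to Srrm3. Its group of Srrm3-202 and Srrm3-205 held 8.96, 9.50 and 6.63% of Srrm3 reads in control and 12.9, 13.6 and 10.1% in knockout, and the group of Srrm3-201 and Srrm3-204 held 83.3, 82.3 and 83.6% and then 80.0, 75.4 and 80.5%. Srrm4, Rest and Rbfox1 had fewer than 50 reads in some library, and by that minimum no test of their shares is given.

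Elavl2 (chr4:91250763-91400785, minus strand), the HuB gene, was at 4.80, 2.54 and 6.98 CPM in control and at 9.83, 5.10 and 11.2 CPM in knockout replicates 1 to 3. The groups overlapped, and in both groups replicate 2 was lowest and replicate 3 highest. The log2 fold change was 0.87 (SE 0.42, 95% interval -0.09 to 1.84, edgeR, adjusted p = 0.219). With the replicate number as a block it was 0.90 and passed the test (adjusted p = 0.0289), where 14.8% of tested genes were called, 6.93% as higher. Rbfox1 (chr16:5885355-7411526, plus strand), an exon-choice regulator of neurons and muscle, was at 1.54, 0.646 and 2.55 CPM in control and at 1.89, 2.21 and 3.42 CPM in knockout, with overlapping groups (log2 fold change 0.67, SE 0.49, edgeR, adjusted p = 0.418). Control replicate 2 was the lowest library for both genes.

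Of 8 markers of autonomic neurons, whose fibres and cells can accompany picked islets, 6 were lowest in the same library. Their summed level was 69.9, 39.9 and 76.2 CPM in control and 61.4, 65.0 and 97.8 CPM in knockout, and none of the 8 was at 0 in all libraries. Prph, a neurofilament-like protein gene of peripheral neurons, was at 14.5, 3.23 and 20.7 CPM in control and 24.2, 27 and 39.3 CPM in knockout. Of the 8 markers 6 were tested, with a median log2 fold change of 1.11. Above 0 lay 5 of them, none called, and Th was called and lower. The part of these cells in the Elavl2 and Rbfox1 levels was not tested.

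Nova1 (chr12:46694517-46818929, minus strand) stood at 14.1, 18.4 and 15.1 CPM in control and 24.1, 15.3 and 21.8 CPM in knockout (log2 fold change 0.37, SE 0.21, edgeR, adjusted p = 0.299). Its relative Nova2 (chr7:18925888-18965319, plus strand) stood at 11.3, 14.6 and 12.7 CPM in control and 13.2, 7.37 and 11.1 CPM in knockout (log2 fold change -0.28, SE 0.24, edgeR, adjusted p = 0.501). Both had overlapping groups.

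Rbfox2 (chr15:77078990-77307004, minus strand), the RBFOX gene expressed most widely, was at 87.5, 72.3 and 75.1 CPM in control and 83.0, 50.3 and 73.5 CPM in knockout (log2 fold change -0.18, SE 0.20, edgeR, adjusted p = 0.586). Celf4 (chr18:25477632-25754157, minus strand) was at 50.2, 52.7 and 44.7 CPM in control and 51.3, 25.5 and 51.9 CPM in knockout (log2 fold change -0.19, SE 0.26, edgeR, adjusted p = 0.667). Knockout replicate 2 was the lowest of the 6 libraries for Nova2, Rbfox2, Celf4 and Elavl4. Without it, the log2 fold change of Rbfox2 was -0.0016 (adjusted p = 0.995) and that of Celf4 turned to 0.07 (adjusted p = 0.744), while the call of Elavl4 was kept.

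**Figure D3:**
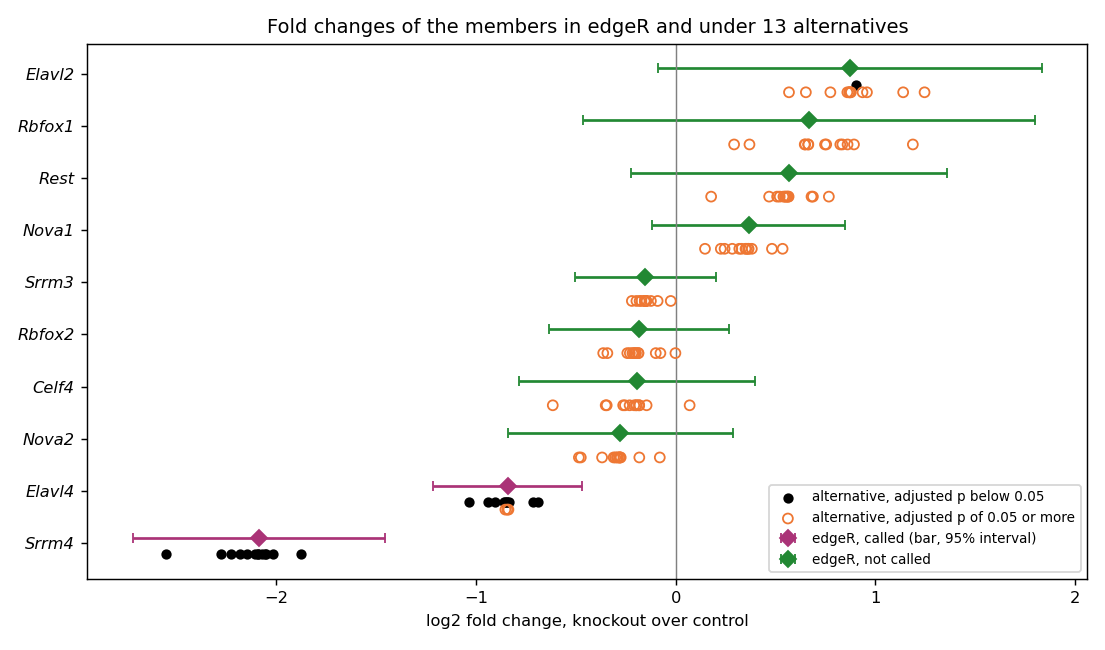
Log2 fold change (knockout over control) of each gene in edgeR, with its 95% interval as a bar, and under 13 alternative settings as circles below it, filled black where the adjusted p was below 0.05 and open orange where it was not. Srrm4 is called in all 13 and Elavl4 in 10, Elavl2 in 1, and no other gene in any.

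The tissue as a whole changed in its cell-type markers. The summed level of 8 beta cell markers was 158221 to 260879 CPM in control and 70026 to 120067 CPM in knockout, with 2 of 8 called lower. A sum mostly follows its most abundant genes. Of the 8 beta log2 fold changes, 7 lay below 0 and 1 above it, at 0.59. The summed level of 9 acinar markers was 882 to 3055 CPM in control and 2078 to 13381 CPM in knockout, with 0 of 9 called. Summed markers of the other endocrine cells were lower too. Alpha cell markers went from 36451 to 65555 CPM in control to 23980 to 28895 CPM in knockout (2 of 6 called lower). Of the 6, 5 had a log2 fold change below 0 and 1 above it, at 0.54. Delta cell markers went from 3109 to 3440 CPM to 1455 to 1869 CPM (2 of 3), and PP cell markers from 4148 to 7128 CPM to 1061 to 1897 CPM (2 of 2). Over all tested genes 5.84% were called lower. Endothelial markers were at 461 to 571 CPM in control and 690 to 842 CPM in knockout, with 4 of 7 called higher. All 9 mesenchymal markers had a log2 fold change above 0, with 1 called higher, where 4.1% of all tested genes were. In such bulk samples fewer cells of a type and less RNA per cell cannot be told apart, for Srrm4 and Elavl4 as for the markers. With the acinar level as a term in the fit, Srrm4 (log2 fold change -2.28, adjusted p = 0.0284) and Elavl4 (-1.04, adjusted p = 0.0414) remained called. That term does not stand for the lower endocrine markers, and no term for those was fitted.

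The proteins through which REST silences genes were described by a list of 21 cofactors and regulators of its stability. All 21 were tested and edgeR called 0 of them, where it called 9.95% of all tested genes. Their median log2 fold change was -0.26, beside 0.01 over all tested genes. Unadjusted p under 0.05 was reached by 7 of the 21. Small unadjusted p were common throughout, as edgeR's p of 0.0695 for Elavl2 ranked only 5210 among the 16430 tested genes. DESeq2, which called 16% of all tested genes, and limma-voom each called 1, Ehmt2. Ehmt2, the histone H3 lysine 9 methyltransferase G9a, was at 183, 174 and 171 CPM in control and at 119, 126 and 135 CPM in knockout, with no overlap (log2 fold change -0.47, edgeR, adjusted p = 0.0539). Phf21a, a subunit of the LSD1 complex that reads unmethylated H3K4, was at 63.0, 61.9 and 57.7 CPM and then 48.6, 41.7 and 50.1 CPM (log2 fold change -0.38, edgeR, adjusted p = 0.0987). Of the 21 log2 fold changes 16 lay below 0. All knockout libraries lay below control for 8 of the 21 genes and above it for 4, where 34.8% of all tested genes had groups that did not overlap.

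Genes known as REST targets moved in both directions. Of 43 listed, 42 were tested, 3 were higher and 4 lower, with a median log2 fold change of 0.04, beside 4.1% higher and 5.84% lower over all tested genes. Higher were the neurofilament gene Nefh (4.67, 5.17 and 5.42 CPM to 13.6, 9.20 and 16.6 CPM; log2 fold change 1.37, adjusted p = 0.015), the neuronal tubulin gene Tubb3 (41.3, 20.4 and 40.4 to 67.5, 83.1 and 81.1 CPM; 1.18, adjusted p = 0.0282) and Ptprn, a protein of dense-core granules (450, 526 and 438 to 741, 709 and 875 CPM; 0.72, adjusted p = 0.0318). Tubb3 was lowest in control replicate 2, as 6 of the 8 neuron markers were, and their part in it was not tested. Lower were Grin1, an NMDA receptor subunit (45.2, 46.9 and 28.3 to 14.8, 10.7 and 14.7 CPM; log2 fold change -1.58, adjusted p = 0.00638), and Gjd2, the gap junction protein connexin 36 that couples beta cells (383, 402 and 340 to 214, 224 and 199 CPM; -0.82, adjusted p = 0.0124). Jph3, which joins the plasma membrane to the endoplasmic reticulum, fell too (42.9, 31.3 and 26.3 to 18.7, 18 and 17.6 CPM; -0.89, adjusted p = 0.0263). The glycine receptor gene Glra1 was low throughout (1.5, 0.560 and 0.657 to 0.241, 0.063 and 0.075 CPM; -2.73, adjusted p = 0.0341). All 7 adjusted p are edgeR's. With the replicate block 11 targets were called (14.8% of all tested genes were). With the acinar level as a term, which called 3.86% of all tested genes, Grin1 alone of the targets was called (log2 fold change -1.93, adjusted p = 0.0119).

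**Figure D4:**
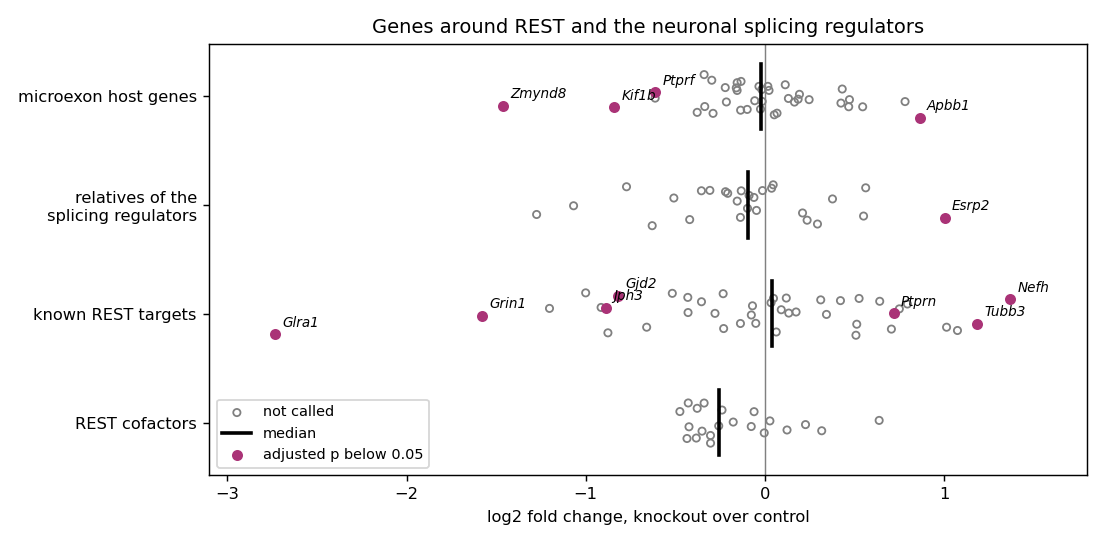
Log2 fold change (knockout over control, horizontal axis) of each tested gene of 4 lists, 1 list per row, with points spread vertically at random for visibility; filled points have an adjusted p below 0.05 in edgeR and black bars are medians. Called genes lie on both sides of 0 among known REST targets (3 higher, 4 lower), and no REST cofactor is called.

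Of 27 relatives and partners of the splicing regulators, all tested, 1 was higher and 0 lower, with a median log2 fold change of -0.10, beside 4.1% higher and 5.84% lower over all tested genes. Esrp2, an epithelial splicing regulator, was at 7.34, 8.74 and 7.06 CPM in control and 14.9, 17 and 14.6 CPM in knockout (log2 fold change 1.00, SE 0.18, edgeR, adjusted p = 0.0141). With the acinar level as a term its log2 fold change was 1.01 and it was not called (adjusted p = 0.072). Rbfox3, the gene of the neuronal nuclear antigen NeuN, was at 3.76, 3.14 and 2.46 CPM in control and 1.16, 0.882 and 1.77 CPM in knockout, with no overlap (log2 fold change -1.27, SE 0.35, edgeR, adjusted p = 0.0575).

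Inclusion of microexons, the readout closest to SRRM3 and SRRM4 activity in these files, was then taken from annotated transcripts. An event was an internal exon of 3 to 27 bases that some annotated transcripts hold and others skip, and inclusion was the share of their estimated reads on transcripts that hold it. Of 370 events in 315 genes, 2 were called (limma on the log2 ratio of including to skipping reads, adjusted p under 0.05), both lower in knockout, which is 0.541%. At an unadjusted p under 0.05 there were 25. Inclusion was lower in 186 and higher in 184, and the median difference of the log2 ratio was -0.01. Groups did not overlap for 47 events, or 12.7%.

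The genes known to host neuronal microexons showed no called event. Their list of 39 genes gave 39 events in 30 genes, of which limma called 0, none reached an unadjusted p of 0.05, and the lowest adjusted p was 0.706. The median difference of their log2 ratio was 0.11, or 0.442 percentage points of inclusion over the 38 events with reads in every library. Among the levels of the 39 genes, 1 was higher and 3 lower, a share near the 9.95% called over all tested genes. Zmynd8, a chromatin reader, was at 150, 155 and 124 CPM in control and 44.5, 56.4 and 54.6 CPM in knockout (log2 fold change -1.46, SE 0.16, edgeR, adjusted p = 0.00216). Kif1b, a kinesin of axonal transport (log2 fold change -0.84, adjusted p = 0.0345), and the receptor phosphatase gene Ptprf (-0.61, adjusted p = 0.0491) were lower too in edgeR. Apbb1, an adaptor of the amyloid precursor protein, was higher at 112, 160 and 119 CPM against 70.8, 67.1 and 76.3 CPM (0.86, adjusted p = 0.0176).

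The 5 events of smallest p are shown with their exon in capitals between 20 bases of each neighbouring exon, from GENCODE vM21 on GRCm38. Their exons lie at chr2:157561213-157561239 (Nnat, plus strand), chr2:153354650-153354652 (Asxl1, plus strand), chr17:34451631-34451654 (BC051142, plus strand), chr19:32646329-32646343 (Papss2, plus strand) and chr5:21891562-21891567 (Reln, minus strand):
Nnat microexon: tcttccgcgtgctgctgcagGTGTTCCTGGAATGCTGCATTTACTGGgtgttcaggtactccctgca
Asxl1 microexon: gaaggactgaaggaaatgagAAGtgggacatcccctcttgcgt
BC051142 microexon: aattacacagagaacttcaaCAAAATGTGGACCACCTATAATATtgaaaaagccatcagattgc
Papss2 microexon: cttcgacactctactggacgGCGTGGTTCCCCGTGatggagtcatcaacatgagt
Reln microexon: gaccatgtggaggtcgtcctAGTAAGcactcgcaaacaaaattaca

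In Nnat, an imprinted gene of a small membrane protein that acts in insulin secretion, the exon of 27 bases was included in 16.5, 14.6 and 14% of reads in control and in 0% in each knockout library (limma, adjusted p = 0.00109). Fewer reads lay behind the knockout values, 121 to 158 per library against 380 to 757 in control. In Asxl1, a chromatin regulator, the exon of 3 bases was included in 100% in each control library. In knockout it was included in 89.6, 93.4 and 96.0% (limma, adjusted p = 0.00165). Reads per library ran from 682 to 1533. Events of nearly full mean inclusion were not tested, and this one was tested only because some knockout reads skip the exon. Without knockout replicate 1 it was not among the events tested. Its log2 ratio difference was -7.45 with 0.5 reads added to each side and -4.23 with 5 added (limma, adjusted p = 0.0252). The 15-base exon of Papss2, which makes the sulfate donor of the cell, was included in 14.8, 14.5 and 17% in control and in 2.10, 0.708 and 3.15% in knockout (adjusted p = 0.21). The 6-base exon of Reln, a secreted matrix protein known for this neuronal microexon, was included in 100, 90.7 and 100% in control and in 32.3, 34.4 and 60% in knockout, from 13 to 92.3 reads (adjusted p = 0.223). The other events of smallest p were higher in knockout, a 24-base exon of BC051142 (69.6% ± 15.2 to 100% ± 0, adjusted p = 0.123) and a 26-base exon of Cerkl (83.7% ± 0.51 to 95.6% ± 2.04, SD, n = 3 each, adjusted p = 0.306). All 4 of these had groups that did not overlap and did not pass limma's adjusted test. With the replicate block 0 of the 370 were called, and Nnat and Asxl1 each had an adjusted p of 0.0653. Transcripts that differ in a microexon can differ elsewhere too, so these shares are of whole transcripts.

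**Figure D5:**
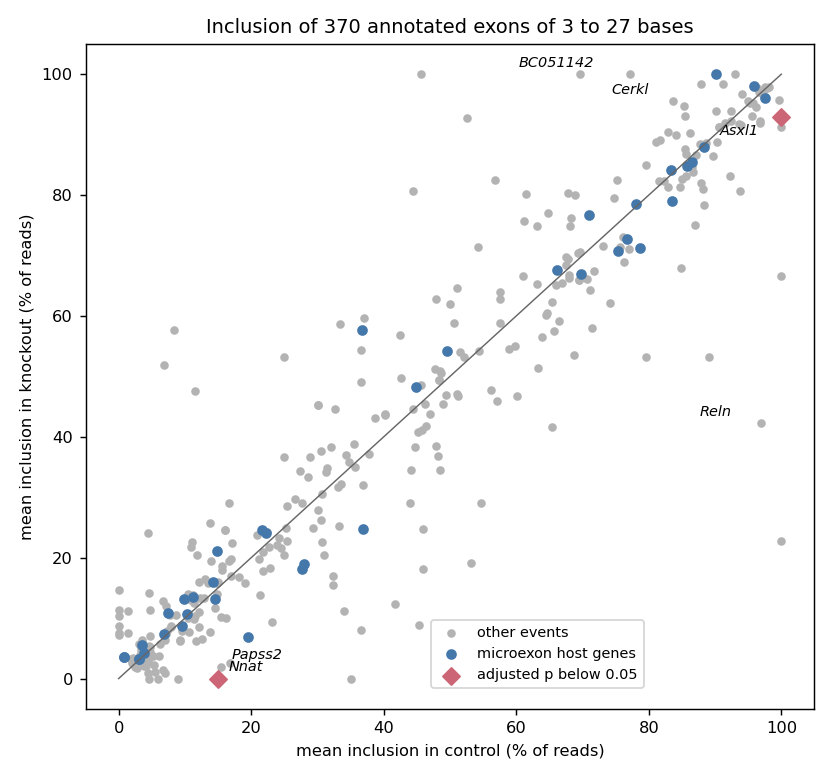
Mean inclusion of each of 370 annotated exons of 3 to 27 bases in control (horizontal axis) and knockout (vertical axis) islets, as a percentage of reads (n = 3 each, less libraries without reads for 6 events), with equal values on the diagonal. The 2 called events, Nnat and Asxl1 (diamonds), lie below the diagonal, the events of microexon host genes (blue) lie on both sides of it, and the 6 events of smallest p are named.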

How the data were processed

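RNA of 6 islet libraries was analysed (3 control, 3 Dpy30 knockout). Per the submitters' processing notes, Trimmomatic, Salmon and DESeq2 were used on GRCm38 (mm10), with versions and settings not given in the sources used here. Per the file headers, the authors deposited Salmon estimated counts and TPM per transcript. A deposited table of the authors' comparison holds log2 fold changes, p-values and a mean signal (scaled count) per gene over all libraries; the signal was not used. The labels describe a strand-marking library kit.

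Transcripts were matched to GENCODE vM21 (139852 of 140948, with 99.6 to 99.7% of reads). Estimated counts were summed per gene, rounded, filtered with filterByExpr (minimum count 10), scaled by TMM and tested with the two-sided quasi-likelihood test of edgeR 4.0.16 (R 4.3.3), group being the only term; p-values were adjusted by Benjamini-Hochberg over all genes at a threshold of 0.05. Transcripts and first-exon groups were fitted likewise. Microexon events needed a mean of 20 reads and a mean inclusion of 2 to 98%, and were tested with limma 3.58.1 after adding 0.5 reads to each side. Intervals of fold changes are 95%. DESeq2 1.42.0 was an alternative.

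The members and the 4 gene lists were chosen with earlier results of these data known. Named were the members, up to 4 called genes per list and direction (2 of smallest p where fewer than 2 were called), the 6 microexon events of smallest p, and 3 genes closest to Rest and to Srrm3 among genes of at least 5 CPM. Deviations of same-numbered libraries from their group means correlated at 0.427, 0.135 and 0.196. Knockout replicate 2 was as close to control replicate 3 (0.14) as to control replicate 2 (0.135). Whether the replicate numbers pair the libraries is therefore not settled. The fits reported first have no replicate term, and the fit with the number as a block is an alternative, given where it changes a call. What a number marks is not labelled, and other pairs reached 0.14. On simulated counts for this comparison (16213 and 16174 genes in 2 sets), the edgeR test recovered 25.3 and 27.4% of 2-fold and 83.5 and 82.7% of 4-fold changes, and 6.19 and 8.55% of its calls were unchanged genes. Promoter windows were RefSeq's.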

Additional observations from a re-analysis of the deposited data

How the results depend on the processing

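Of the 130 fold changes of members under alternatives, 125 kept direction and call; the 3 losses (Elavl4 without each control library), the gain (Elavl2 with the replicate block) and the reversal (Celf4, 0.0696 without knockout replicate 2) had causes that were not tested. Celf4 ran from -0.35 to 0.0696 with 1 library left out, and reached -0.62 with the acinar covariate. The replicate block changed no other member's call. DESeq2 called 2633 genes in place of 1634, and 1, 13, 4 and 7 genes of the REST cofactor, REST target, relatives and microexon host lists in place of 0, 7, 1 and 4. Limma-voom called 1 cofactor, and 2 relatives were called with no low-count filter. The replicate block called 2430 genes, 11 targets and 2 relatives, but 0 transcripts in place of 175 and 0 microexon events in place of 2. With the acinar level as a covariate 634 genes, 1 target and 0 relatives were called. Leaving out 1 library gave 737 to 1330 genes, 1 to 2 members, 1 to 6 targets, 0 to 2 relatives, 1 to 6 host genes, 0 transcripts and 2 to 5 microexon events. With shares of TPM, 4 of 30 member transcripts had groups that did not overlap in place of 2. Fits without 1 library have fewer samples, and fits with a block or covariate have fewer residual degrees of freedom. The block called more genes but fewer transcripts, and why these whole-table calls changed was not tested. Depth limits Srrm4, Rest and Rbfox1 most, with fewer than 50 reads in at least 1 library.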
